A study of Mus musculus with 8 samples.

Results

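The genes described here are 10 members of the purinergic signalling system in mouse thymic epithelial cells: the ATP-gated channels P2rx7, P2rx4, P2rx5 and P2rx3, the pannexins Panx1, Panx2 and Panx3, and the nucleotide receptors P2ry1, P2ry2 and P2ry6. They were taken by name from the 22883 genes to which the array's probes were matched, and 14 probes report them. P2rx7 and Panx3 were picked on their measured fall with doxycycline, so their doxycycline values are a description without a test. The other 8 were named as members of the same families. 9 of the 10 were bright enough to enter the test across 19023 genes, and P2ry1 did not.

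The cells were TEC100.4, an immortalized line derived from cortical thymic epithelium. Each of 2 derived lines carried a doxycycline-inducible mutant of TFII-I, a transcription factor encoded by Gtf2i: the δ isoform in one (TFII-I-δmt) and the β isoform in the other (TFII-I-βmt). The 4 groups were the δ line with doxycycline for 24 h, the δ line without it, the β line with doxycycline for 24 h and the β line without it, with 2 one-colour arrays each. All groups therefore carried a mutant TFII-I construct, and no array of the parent line or of parent cells given doxycycline was analysed here, so the drug and the induced protein cannot be told apart. The labels name no separate cultures behind replicate arrays and do not say whether each line is 1 clone. A p-value here therefore reflects the scatter of these samples alone, part or all of which may be technical.

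Extracellular ATP is a danger and activity signal. P2X receptors are cation channels that ATP opens, P2Y receptors are G-protein-coupled receptors for ATP, UTP and their diphosphates, and pannexins form large-pore membrane channels, of which pannexin 1 is known to release ATP. P2X7 needs high ATP, can lead to a large permeability and, in macrophages, to assembly of the NLRP3 inflammasome. In the thymus it is best known for ATP-driven death of thymocytes, and it is also found in epithelial cells.

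Levels are log2 signals relative to each array's own 75th percentile, so that 0 is the signal of a probe brighter than 75% of all probes, and they compare arrays for 1 probe, never 1 probe with another. Between 39512 and 45080 of 56507 probes were well above background per array, 43345 to 45080 with doxycycline and 39512 to 40698 without it. Replicates correlated at 0.997 (δ with doxycycline), 0.965 (δ without), 0.996 (β with) and 0.994 (β without). Replicate 1 of the untreated δ group held 79 of 1008 small areas whose signal deviated from the other arrays, against 0 to 8 on every other array, and no probe of the 10 genes lay in one. All arrays shared 1 slide, with the doxycycline arrays in row 1 and the untreated arrays in row 2, so slide row and doxycycline cannot be told apart. The β arrays and the δ arrays lay in different slide columns, so slide column and line cannot be told apart either. The number of arrays limits the precision. The 3 Gtf2i probes differed with doxycycline by 0.05, 0.14 and 0.09 log2 units in the δ line and by 0.15, 1.31 and 0.11 in the β line. Of these, 0 passed (limma, lowest adjusted p = 0.0931), so the induction of the mutants was not shown by these arrays. Whether these probes can tell mutant from endogenous transcripts was not tested, so the missing calls do not show that induction was absent. Of 17 epithelial and cortical thymic epithelial markers, 12 were well above background on every array, among them Krt8, Krt18, Foxn1 and Prss16, but the cortical proteasome subunit Psmb11 was so on no array, and Epcam and Cdh1 on only 1 and 3.

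RefSeq (GRCm38.p6) gave promoter windows, 250 bases before to 50 after a start, for 5 of the 10 genes. P2rx7 and P2rx4 are adjacent protein-coding genes on chromosome 5 and only P2rx7 was picked on a fall with doxycycline, so their windows are shown, both starts of P2rx7 first. All lie on the plus strand. Capitals mark a match to any of 4 letter strings searched on both strands, none of which contains another: the GC box GGGCGG, present in 35.66% of 32851 mouse promoter windows of this length, the TATA box TATAAA (13.62%), the E-box CACGTG (7.15%) and the AP-1 site TGANTCA (7.808%).
P2rx7 start 1, chr5:122643677-122643976: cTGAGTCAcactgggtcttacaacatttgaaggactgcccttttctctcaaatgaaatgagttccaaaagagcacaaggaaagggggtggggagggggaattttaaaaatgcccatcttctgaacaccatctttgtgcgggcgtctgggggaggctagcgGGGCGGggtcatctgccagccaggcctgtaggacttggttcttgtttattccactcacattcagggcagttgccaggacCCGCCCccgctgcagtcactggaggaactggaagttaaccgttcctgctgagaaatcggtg
P2rx7 start 2, chr5:122650133-122650432: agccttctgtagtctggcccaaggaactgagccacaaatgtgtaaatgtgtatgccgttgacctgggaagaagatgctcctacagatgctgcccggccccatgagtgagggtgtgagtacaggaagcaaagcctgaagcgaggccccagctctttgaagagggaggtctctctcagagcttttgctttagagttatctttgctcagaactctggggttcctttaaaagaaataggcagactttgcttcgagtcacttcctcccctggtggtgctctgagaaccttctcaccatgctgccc
P2rx4, chr5:122707294-122707593: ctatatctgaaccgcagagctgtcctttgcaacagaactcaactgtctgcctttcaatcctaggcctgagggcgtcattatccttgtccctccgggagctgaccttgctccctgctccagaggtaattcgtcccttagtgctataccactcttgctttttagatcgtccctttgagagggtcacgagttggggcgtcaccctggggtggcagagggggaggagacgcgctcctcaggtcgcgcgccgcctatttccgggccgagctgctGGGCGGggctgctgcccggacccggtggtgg
The first P2rx7 window held 2 GC boxes and 1 AP-1 match with a GC content of 53.33%. The second held none of the 4 strings (GC content 51.67%), and the P2rx4 window held 1 GC box (60.33%). A match describes the letters and is not evidence of a bound factor.

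P2rx7, the ATP-gated channel of the inflammasome pathway, was lower with doxycycline in both lines. Its brightest probe, A_52_P393314, read 0.22 and 0.20 in the δ line with doxycycline and 1.74 and 1.59 without. In the β line the same probe read -0.90 and -1.10 with doxycycline and 0.98 and 0.98 without. Both treated arrays of each line lay below both untreated arrays, and replicates differed by far less than the treated and untreated groups. As unscaled processed intensities these were 1559 and 1501 against 3849 and 4802 in the δ line, and 544.7 and 561.2 against 2791 and 3012 in the β line. The group means were 0.21 ± 0.015 with and 1.67 ± 0.105 without doxycycline in the δ line, and -1.001 ± 0.140 with and 0.98 ± 0.004 without in the β line (SD, n = 2 each). The difference was -1.46 log2 units in the δ line, 2.75-fold lower, and -1.98 in the β line, 3.95-fold lower. By signed difference P2rx7 stood 20th from the lowest of 19023 genes in the δ line and 7th in the β line, which is the property it was picked for. In bulk RNA such a difference cannot tell less RNA per cell from fewer cells that hold it.

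The other P2rx7 probes, each listed in the scanner files with a different RefSeq transcript of the gene, gave the same direction. Probe A_55_P2183010 read -2.16 and -2.21 in the δ line with doxycycline and -0.59 and -0.57 without. It read -2.64 and -2.80 in the β line with doxycycline and -0.62 and -0.78 without. Its treated arrays were again all below the untreated ones, 3.03-fold in the δ line and 4.05-fold in the β line. The dimmest probe, A_51_P506733, read -4.19 and -4.13 in the δ line with doxycycline and -2.95 and -2.75 without, a 2.49-fold lower level. In the β line it read -4.87 and -5.34 with doxycycline and -2.86 and -3.30 without, 4.07-fold lower. All 3 probes were well above background on all 8 arrays, and on each of them the drop was larger in the β line than in the δ line, by 0.52 log2 units on the brightest. That difference between the lines is built from the values that picked the gene and is given without a test. Which exons each probe covers was not used here.

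Panx3, a pannexin best known from cartilage, bone and skin, was reported by 1 probe with the same order of groups. It read -2.88 and -3.13 in the δ line with doxycycline and -1.51 and -1.80 without. In the β line it read -3.85 and -3.83 with doxycycline and -2.08 and -2.24 without. The treated and untreated arrays did not overlap in either line, and the differences were -1.35 in the δ line (2.55-fold lower) and -1.68 in the β line (3.20-fold lower), 31st and 10th from the lowest of all genes. These are intensities of 182.0 and 149.6 against 403.5 and 457.9 in the δ line, and of 70.7 and 84.4 against 333.0 and 323.8 in the β line. With a normexp background correction in place of the scanner's own, the β difference was -1.04 log2 units and the δ difference -1.09, so the larger drop in the β line is not kept at that setting.

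**Figure D1:**
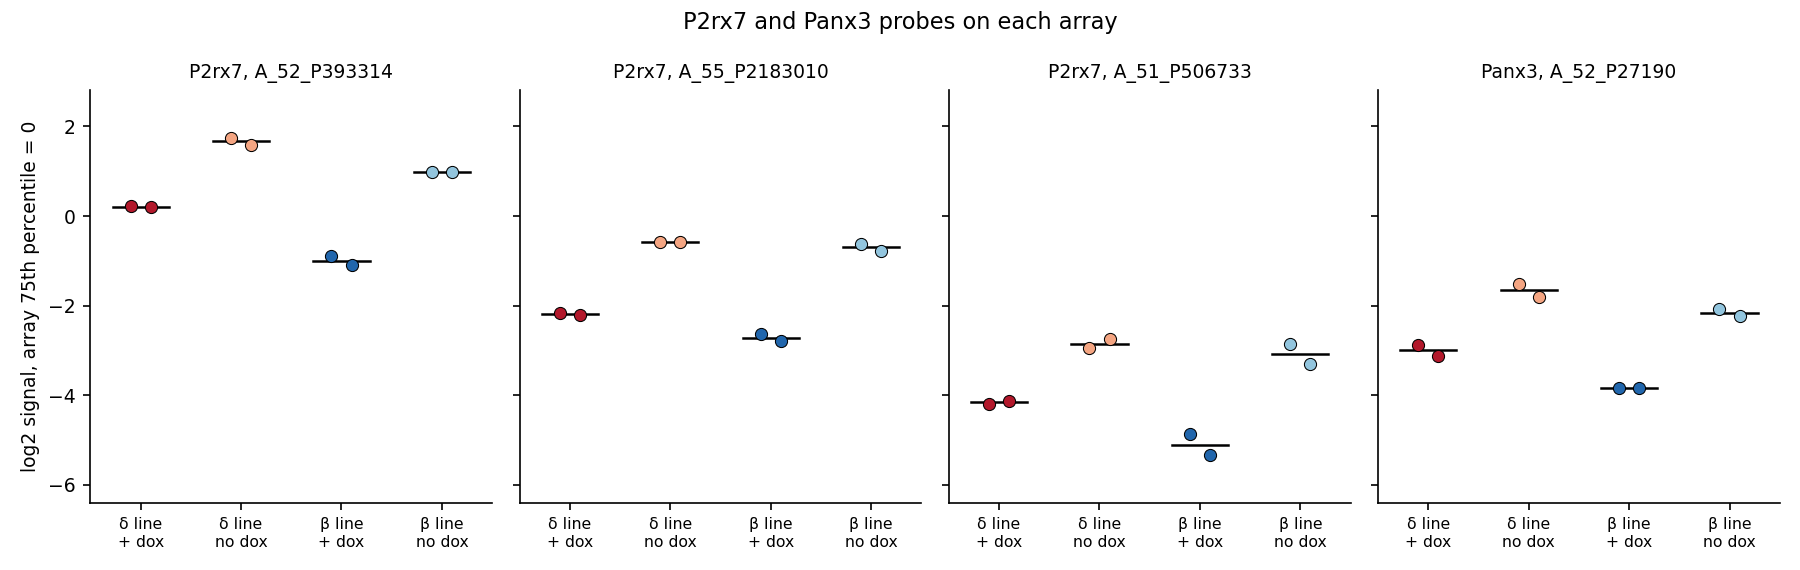
Log2 signal of the 3 P2rx7 probes and the Panx3 probe on each of the 8 arrays, relative to the array's 75th percentile; points are arrays, lines are group means, and levels of different probes are not comparable. In each line both doxycycline arrays lie below both untreated arrays on all 4 probes, and the β line with doxycycline is the lowest group on each.

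Across the 8 arrays, the 5 genes whose levels were most like those of P2rx7 were Gpr182 (Pearson r = 0.9919), Map3k6 (0.9907), Panx3 (0.9898), Strn4 (0.9897) and Rps6ka1 (0.9891), among 16729 genes well above background on every array. For Panx3 they were P2rx7 (0.9898), Mrpl38 (0.986) and Mlxip (0.9836). Among the other members, P2ry2 followed P2rx7 at r = 0.8526, P2ry6 at 0.6628 and P2rx5 at 0.282. They ranked only 473rd, 1793rd and 5545th among these genes, so many other genes were more like P2rx7. P2rx4 was near 0 at 0.0896, and Panx1 and P2rx3 ran opposite at -0.5284 and -0.6472. These coefficients describe 8 arrays that share a slide and 4 groups, and P2rx7 and Panx3 were both picked on doxycycline, so their likeness to each other is partly fixed by that choice.

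The genes next to P2rx7 and Panx3 on their chromosomes were also read. P2rx7 and Panx3 were picked for a large fall, so smaller differences beside them follow largely from that choice. Beside P2rx7 on chromosome 5, in RefSeq order, Anapc7, Atp2a2 and Ift81 on one side and P2rx4, Camkk2 and Anapc5 on the other differed with doxycycline by -0.18 to 0.36 log2 units in the δ line and by -0.18 to 0.23 in the β line. Beside Panx3 on chromosome 9, Spa17, Siae, Tbrg1, Olfr874 and Olfr875 differed by -0.46 to 0.55 in the δ line and by 0.04 to 0.34 in the β line, and Olfr160 was not well above background. None of these 11 measured neighbours passed the test with doxycycline in either line (limma, lowest adjusted p 0.236 in the δ line and 0.339 in the β line, with 2 and 0 at an unadjusted p under 0.05). Of all genes, 0.0736% passed in the δ line and 0.247% in the β line, and 15.0% and 18.2% had an unadjusted p under 0.05. These counts therefore do not set the neighbours apart from other genes. The neighbours were chosen by position, after the values were seen.

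**Figure D2:**
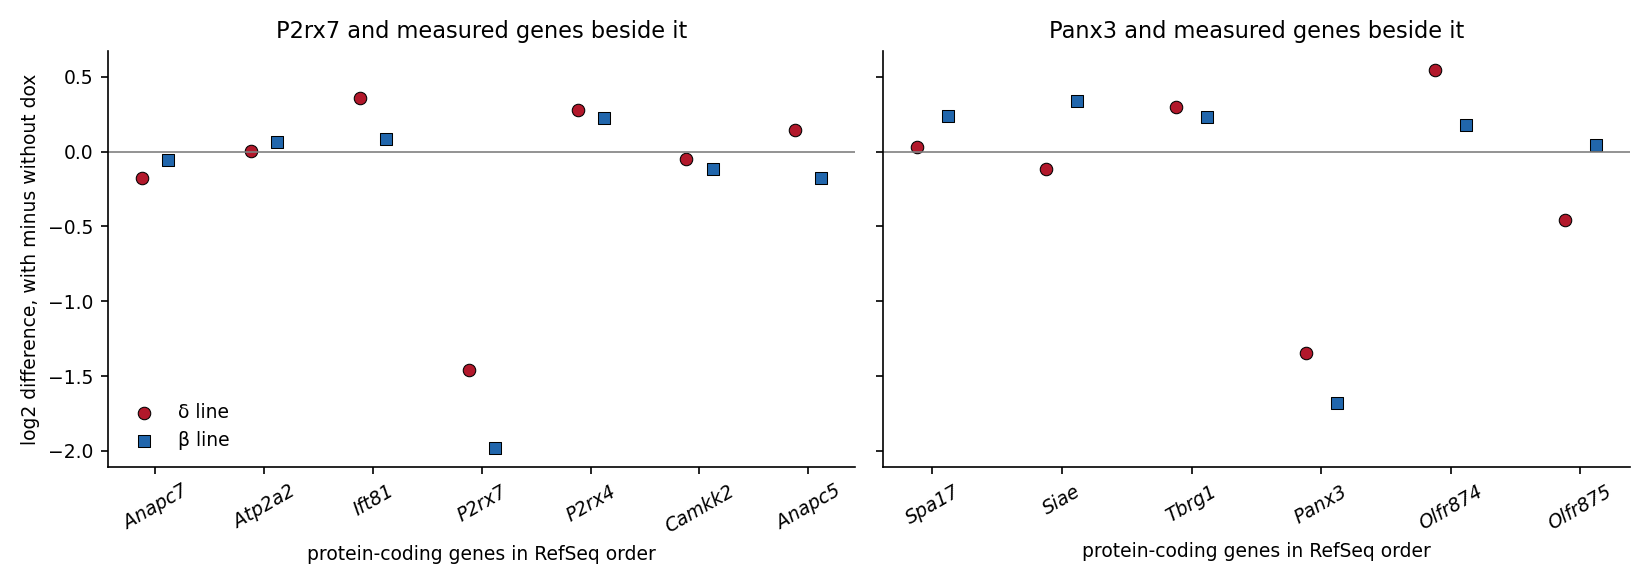
Log2 difference with minus without doxycycline for P2rx7 and Panx3 and for the measured protein-coding genes on each side of them, in RefSeq order; circles are the δ line and squares the β line. P2rx7 and Panx3, picked for their fall, lie below -1 in both lines and every neighbour between -0.46 and 0.55.

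None of the other 7 members tested passed in any doxycycline comparison. In the δ line the count was 0 of 7 (limma, lowest adjusted p = 0.26, 3 at an unadjusted p under 0.05, as were 15.0% of all genes), where 0.0736% of all genes passed, 4 higher and 10 lower. In the β line it was 0 of 7 (lowest adjusted p = 0.146, 2 at an unadjusted p under 0.05, beside 18.2% of all genes), where 0.247% of genes passed, 22 higher and 25 lower. Taken as the mean over both lines, a contrast added after the values were seen, 0 of 7 passed (lowest adjusted p = 0.0581, 4 at an unadjusted p under 0.05, beside 22.5% of all genes) against 3.12% of all genes. The doxycycline effect did not pass as different between the lines for any of the 7 (lowest adjusted p = 0.691, 0 at an unadjusted p under 0.05, beside 7.53% of all genes), and 0.00526% of all genes, 1 of 19023, did. The median differences of all genes were 0.00 in the δ line and 0.03 in the β line.

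P2ry2, a receptor for ATP and UTP, came closest. It read -1.35 and -1.55 in the δ line with doxycycline and -0.89 and -0.96 without, and -1.41 and -1.63 in the β line with doxycycline and -1.13 and -0.78 without. The treated arrays were below the untreated arrays in each line. The differences were -0.53 ± 0.154 in the δ line (limma adjusted p = 0.26) and -0.56 ± 0.154 in the β line (adjusted p = 0.146; log2 ± SE). Their mean was -0.545 ± 0.109, with an adjusted p of 0.0581, and it passed in 5 of 17 other settings, over which the adjusted p ran from 0.0342 to 0.245.

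P2rx4, P2rx5 and P2rx3 had higher means with doxycycline on their brightest probes, without passing the test. P2rx4, a channel found on many cell types and able to associate with P2X7, read 3.02 and 3.07 in the δ line with doxycycline and 2.87 and 2.67 without. In the β line it read 2.40 and 2.51 with doxycycline and 2.17 and 2.28 without. The treated arrays were the higher ones in both lines, by 0.28 ± 0.108 in δ (adjusted p = 0.319) and 0.23 ± 0.108 in β (adjusted p = 0.339). For P2rx5, another ATP-gated channel, the brightest probe differed by 0.20 ± 0.118 in the δ line and 0.425 ± 0.118 in the β line (limma adjusted p = 0.43 and 0.149). Its dimmer probe differed by -0.63 in the δ line, the opposite direction, and was well above background on neither untreated β array. P2rx3, the channel of sensory neurons, lay between -2.17 and -1.75 on all 8 arrays and differed by 0.19 in the δ line and 0.13 in the β line (adjusted p = 0.465 and 0.667).

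P2ry6, a receptor for UDP, differed by -0.57 ± 0.216 with doxycycline in the δ line (limma adjusted p = 0.314) and by -0.115 ± 0.216 in the β line (adjusted p = 0.849). Panx1, the widely expressed ATP-release channel, differed by 0.015 in the δ line and 0.084 in the β line, within its replicate spread (SD 0.007 to 0.164). Panx2, known mainly from brain, was dim, with 6 of 8 arrays well above background on its brighter probe and values from -5.56 to -4.32 that overlapped between treated and untreated arrays in the δ line. It differed by 0.44 ± 0.320 in δ and 0.73 ± 0.320 in β (adjusted p = 0.507 and 0.304). Leaving out 1 array moved these to between 0.126 (without replicate 1 of the treated δ arrays) and 0.759 (without its replicate 2) in δ, and to between 0.318 (without replicate 2 of the untreated β arrays) and 1.14 (without its replicate 1) in β. The dimmer Panx2 probe differed by 0.50 in the δ line and by -0.07 in the β line, there in the opposite direction. It was well above background on neither untreated δ array. P2ry1, an ADP receptor, was well above background on 1 array, replicate 2 of the β line with doxycycline, and was not tested.

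**Figure D3:**
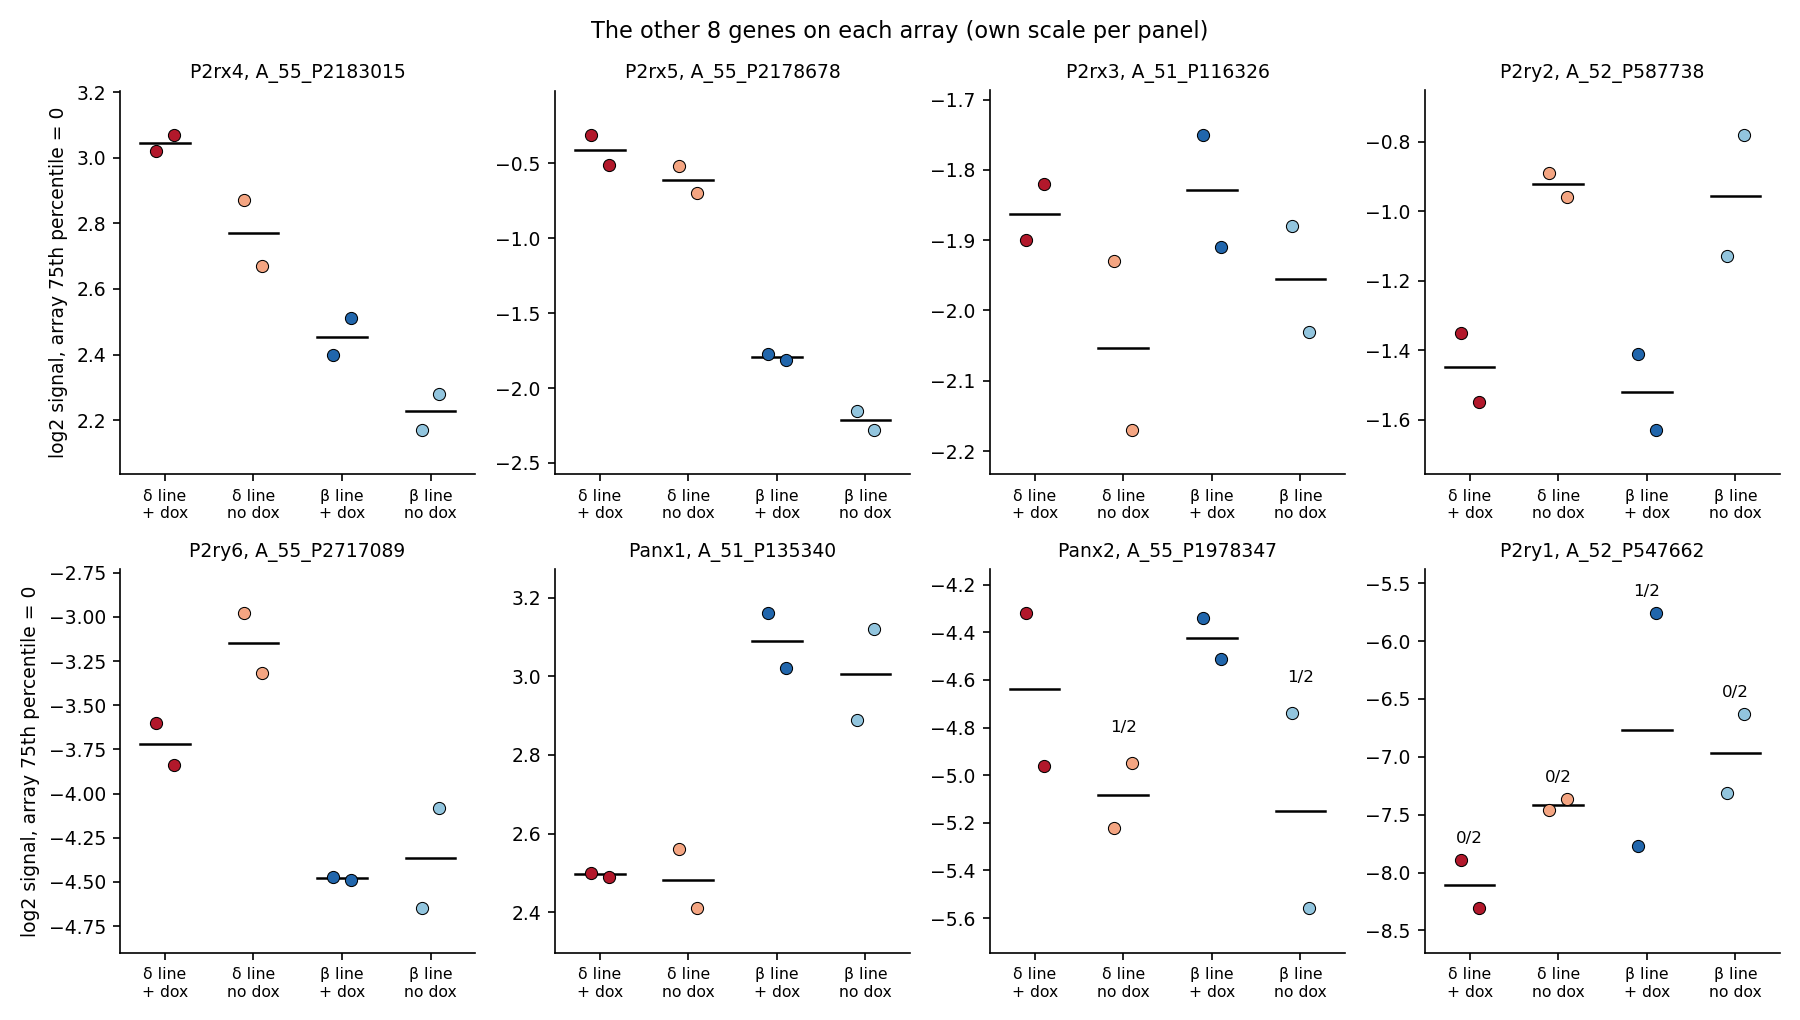
Log2 signal of the 8 genes not picked on their fall, 1 probe each, on each array relative to the array's 75th percentile, with its own vertical scale per panel; points are arrays, lines are group means, and a fraction above a group gives how many of its 2 arrays were well above background where not both were. P2rx4, P2rx5 and P2ry6 are higher and Panx1 lower on all 4 δ arrays than on any β array, and P2ry2 is lower with doxycycline in both lines.

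Most of the measured members differed between the lines. The δ line minus the β line, averaged over doxycycline, is independent of the comparison that picked P2rx7 and Panx3, so all 9 measured genes were tested in it. Of these 6 passed, 5 higher and 1 lower in the δ line, where 24.6% of all genes passed, 2901 higher and 1783 lower. The median difference of the 9 was 0.57, and that of all genes was -0.01. Without P2rx7 and Panx3, the median of the other 7 was 0.05, and 3 of them passed as higher and 1 as lower. The same 6 genes passed in all 16 other settings, including those that left out 1 array. The lines lay in different slide columns, so no setting can tell line from slide column.

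P2rx5 differed most. It read -0.31 and -0.51 with doxycycline and -0.52 and -0.70 without in the δ line, and -1.77 and -1.81 with and -2.15 and -2.28 without in the β line. Every δ array was above every β array, by 1.49 ± 0.083 log2 units (limma adjusted p = 0.000108), which is 2.81-fold. Its dimmer probe, not well above background on the untreated β arrays, was at least 4.23-fold higher in the δ line without doxycycline, and 1.67 log2 units higher with it.

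P2ry6 was also higher in the δ line on every array. It read -3.60 and -3.84 with doxycycline and -2.98 and -3.32 without in the δ line, and -4.47 and -4.49 with and -4.65 and -4.08 without in the β line. The difference was 0.99 ± 0.153 (limma adjusted p = 0.00612), 1.98-fold, and 0.50 with a normexp background correction. P2rx4 differed by 0.57 ± 0.076 (adjusted p = 0.00368), 1.48-fold, with no overlap between the lines.

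P2rx7 was higher in the δ line by 0.95 ± 0.075 on its brightest probe (limma adjusted p = 0.000442), 1.93-fold. The gap was 1.21 with doxycycline and 0.69 without. The other probes gave 0.33 ± 0.080 (adjusted p = 0.0425) and 0.59 ± 0.151 (adjusted p = 0.0493) in the fit over all probes, and the mean over the 3 probes gave 0.62. Without doxycycline these 2 probes differed between the lines by 0.12 and 0.23, and the arrays of the dimmest overlapped. Panx3 was higher in the δ line by 0.67 ± 0.1 (adjusted p = 0.00526), 1.60-fold, and by 0.41 with a normexp background correction.

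Panx1 was the one member lower in the δ line. It read 2.50 and 2.49 with doxycycline and 2.56 and 2.41 without in the δ line, and 3.16 and 3.02 with and 2.89 and 3.12 without in the β line. All δ arrays were below all β arrays, by 0.56 ± 0.084 log2 units (limma, log2 difference -0.56, adjusted p = 0.00553), or 1.47-fold. P2ry2, P2rx3 and Panx2 differed by 0.05 ± 0.109, -0.07 ± 0.088 and -0.07 ± 0.227 and did not pass (adjusted p = 0.759, 0.621 and 0.846). The dimmer Panx2 probe differed by -0.39 ± 0.168 and did not pass in the fit over all probes (limma adjusted p = 0.18).

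**Figure D4:**
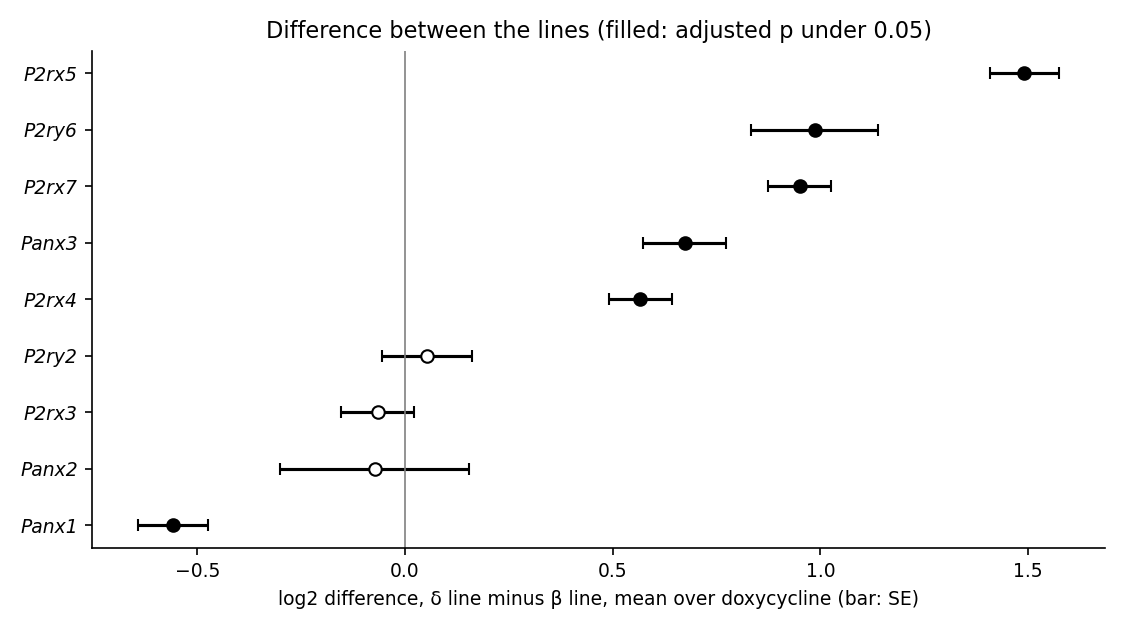
Log2 difference of the δ line minus the β line, averaged over doxycycline, for the 9 measured genes; bars are the standard error of the fit on 8 arrays and filled points have an adjusted p under 0.05. P2rx5, P2ry6, P2rx7, Panx3 and P2rx4 are filled on the higher side, from 1.49 to 0.57, and Panx1 at -0.56 on the lower side.

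The other genes of the pathway were taken from 9 lists of ATP release, sensing and breakdown, of which 55 genes were measured. With doxycycline 0 of 55 passed in the δ line (limma, 14 at an unadjusted p under 0.05, beside 15.0% of all genes, median difference -0.07) and 0 of 55 in the β line (11 at that p, beside 18.2%, median 0.12). As the mean over both lines 2 of 55 passed, a share close to the 3.12% of all genes. Gsdmd, whose product forms the membrane pores of pyroptosis, was lower by 0.59 ± 0.088 (log2 difference -0.59, adjusted p = 0.0336), reading 3.12 and 3.20 with doxycycline and 3.6 and 3.6 without in the δ line, and 3.30 and 3.45 with and 4.27 and 3.98 without in the β line. Slc29a3, a nucleoside transporter of lysosomes, was higher by 0.71 ± 0.084 (adjusted p = 0.0214), reading -0.91 and -1.15 with and -1.52 and -1.62 without in the δ line, and -1.07 and -0.93 with and -1.92 and -1.82 without in the β line. Each of these calls was lost in 8 of 17 other settings.

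Between the lines, 22 of the 55 passed, 9 higher and 13 lower in the δ line, with a median difference of -0.07 beside -0.01 for all genes, of which 24.6% passed, 15.2% higher and 9.37% lower. 8 of the 22 passed in every other setting and 14 lost the call in at least 1. Of 10 measured ATP-release channels 6 were lower and 0 higher: Lrrc8e (-1.64), Lrrc8c (-0.56) and Lrrc8b (-0.50), subunits of the volume-regulated anion channel, Slco2a1 (-0.53), Ank (-0.46) and Calhm2 (-0.36). Among 11 measured enzymes that break down extracellular nucleotides, Alpl, the tissue-nonspecific alkaline phosphatase, was higher by 2.87 ± 0.144 log2 units (limma adjusted p = 7.39e-05). With a normexp background correction the Alpl difference was 1.79 and that of Enpp1, 0.87 as reported, was 0.43. Enpp1, Entpd2 (0.73) and Pnp (0.40) were higher as well, and Nt5e, the CD73 enzyme that makes adenosine from AMP, was lower by 0.82 ± 0.092 (log2 difference -0.82, adjusted p = 0.00176). Entpd1, the CD39 enzyme, was well above background on 2 arrays of different groups and was not tested, and Ada, which deaminates adenosine, differed by -0.30 (adjusted p = 0.0706).

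Of the receptors and transporters, P2rx2 (-0.24, adjusted p = 0.0412) was lower among 3 other P2X channels, and none of P2ry4, P2ry10, P2ry12, P2ry13 and P2ry14 was well above background on any array. The adenosine receptor Adora2b was lower (-0.47, adjusted p = 0.0395, and -0.29 with normexp), but this call was lost in 12 of 16 other settings and that of P2rx2 in 11. The equilibrative nucleoside transporter Slc29a1 was lower by 0.45 (log2 difference -0.45, adjusted p = 0.00475), and the vesicular ATP transporter Slc17a9 differed by 0.11 (adjusted p = 0.414).

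Of the inflammasome genes, Txnip (0.67) and Il1r1 (0.40) were higher and Gsdmd (-0.37) was lower in the δ line among 9 measured. The sensor Nlrp3 differed by 0.04, its adaptor Pycard by -0.19, Casp1 by 0.41 (0.10 with normexp) and Il18 by 0.14, and none of these 4 passed (limma, adjusted p = 0.891, 0.446, 0.0751 and 0.205). Il1b and Il1a, the interleukins that P2X7 is known to release from macrophages, were well above background on no array. Among ADP-ribosyltransferases, enzymes of the family that activates mouse P2X7 on T cells with NAD, Art3 (0.35) was higher. Art4 also passed, but it was well above background only on the δ arrays with doxycycline and entered the test through them, and it lost the call with a normexp background correction, so no size is given. Art2b, well above background on 4 arrays and on a probe inside a deviant area, differed by 0.12 (adjusted p = 0.899). Of 6 candidate regulators and partners of P2rx7, Pi4ka (0.31) was higher and Dicer1 (-0.28) was lower. The Pi4ka call was lost in 7 of 16 other settings and that of Dicer1 in 9, and Dicer1 changed sign in 1 more. Between the lines the calls of Art3 and Lrrc8b were also lost in 9 settings each, and that of Gsdmd in 6.

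Markers of other cells that carry P2X7 were compared beside these values. Of 10 leukocyte and macrophage markers, Ptprc, Adgre1 and Fcgr1 were well above background on no array and 6 were so on every array. Their summed level, in multiples of the array's 75th percentile and over probes of unlike brightness, was 16.0 to 16.4 in the δ line with doxycycline and 17.3 to 19.6 without, and 21.9 to 24.5 in the β line with doxycycline and 17.9 to 20.9 without. Of 13 thymocyte markers, Cd3g and Rag1 were well above background on no array and 8 were so on every array. The summed level of the 13 was 19.4 to 21.0 with and 18.6 to 21.0 without doxycycline in the δ line. In the β line it was 23.3 to 34.5 with and 20.8 to 22.5 without. With doxycycline 0 of the 7 leukocyte and 0 of the 11 thymocyte markers measured passed in either line (limma, in the δ line 0 and 2 and in the β line 2 and 5 at an unadjusted p under 0.05). The shares of all genes that passed were 0.0736% in the δ line and 0.247% in the β line, and 15.0% and 18.2% had such an unadjusted p. Fibroblast markers summed to 460.4 to 476.4 on the δ arrays and 453.1 to 578.7 on the β arrays, with 0 of 7 passing with doxycycline in either line (0 in the δ line and 2 in the β line at an unadjusted p under 0.05). Of 4 measured endothelial markers Kdr passed, higher with doxycycline in the β line by 0.93 (adjusted p = 0.0405). Between the lines, where 15.2% of all genes passed as higher and 9.37% as lower, markers of several cell types passed. Of the cortical and general epithelial markers 1 of 14 was higher and 3 lower in the δ line, among them Krt8 (-1.99) and Prss16 (-1.05). Of the medullary markers 0 of 5 were higher and 2 lower, Krt14 (-3.71) and Tnfrsf11a (-0.43), and their sum, led by Krt14, was 4.82 to 5.79 on the δ arrays and 30.6 to 38.9 on the β arrays. Of the leukocyte markers 1 of 7 was higher and 3 were lower, among them Cd14 (-1.18), and of the thymocyte markers 2 of 11 were higher. The lower leukocyte markers include Lyz2, well above background on no δ array, which entered the test through the treated β arrays. The higher thymocyte markers include Themis, well above background only on the δ arrays with doxycycline, which entered the test through them. Of the fibroblast markers 2 of 7 were higher, among them Pdgfrb (2.47), and 2 were lower, and of the endothelial markers 2 of 4 were higher, among them Kdr (1.70). These markers differed between the lines in both directions, and their part in the line difference of the members was not tested.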

How the data were processed

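RNA of 8 samples (4 groups of 2) was hybridised to one-colour Agilent mouse arrays and scanned, and the deposited intensity values are the authors' Feature Extraction output (11.5.11 per the submitters' processing notes, 11.5.1.1 per the file headers), background-subtracted and detrended by the software per the file headers. The probe design's build was mm9 per the file headers. Control spots and outlier flags were left out, spots of a probe were averaged, and log2 of the processed signal minus the array's 75th percentile was used. 0 spots were saturated. Detrending differed, with a fitted spread of 0 to 0.081 on doxycycline arrays and 0.067 to 0.126 on untreated arrays.

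Of 56605 probes 98 had no unflagged spot, and 32931 of the rest matched 1 gene in RefSeq by the transcript listed in the files. A probe was kept if some group had it well above background on each of its arrays (27215 named probes), and the brightest kept probe stood for a gene. limma 3.58.1 in R 4.3.3 fitted 1 mean per group to 19023 genes (4 residual degrees of freedom), with Benjamini-Hochberg adjustment and a threshold of 0.05, and was tested on simulated data. Bars and errors after ± are the fit's standard errors unless given as SD. Single probes were tested in a fit over all kept probes.

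The members, lists and neighbours were chosen with earlier results of these data known. Named are all members, the genes most like P2rx7 and Panx3, each listed pathway gene that passed, and a core of pathway genes. One listed gene is counted but not reported by name here. The lists were ATP-related receptors, enzymes, transporters, release channels, inflammasome, ADP-ribosyltransferase and regulator genes, with cortical and medullary epithelial, leukocyte, thymocyte, fibroblast and endothelial markers. Alternatives were normexp background correction (offset 50, on median spot and background signals, in place of the mean signals planned), quantile normalization, median centring, other filters, the mean over probes, an intensity trend, the slide column as a block, only the arrays compared, and leaving out single arrays or deviant areas. Same-numbered slide columns did not pair samples: deviations correlated at 0.076 in the δ line and 0.019 in the β line.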

Additional observations from a re-analysis of the deposited data

How the results depend on the processing

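P2rx7 and Panx3 stayed lower with doxycycline in every setting run. P2rx7 ranged from -1.53 to -1.38 log2 units in the δ line and from -2.08 to -1.83 in the β line, and the same 6 members passed between the lines in all 16 settings. The number of members past the threshold with doxycycline over both lines, 0 as reported, was 1 (P2ry2) without a filter on dim probes, on probes well above background on all arrays, with an intensity trend and without deviant areas, and 0 to 1 with single arrays left out (1 without replicate 2 of the untreated δ group).

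Differences near 0 changed sign. With normexp, P2ry6 with doxycycline in the β line was 0.134, the difference between the lines' doxycycline effects was -0.034 for P2rx3, -0.057 for Panx3 and -0.085 for P2ry2, and Art2b between the lines was -0.016. With quantile normalization Panx1 with doxycycline in the δ line was -0.023, Panx2 between the lines 0.008, and the P2rx4 difference of effects -0.008. As a mean over probes P2rx5 with doxycycline was -0.215 in the δ line and -0.027 over both lines, the Panx2 difference of effects 0.144 and Dicer1 between the lines 0.022. Leaving out single arrays gave, with doxycycline in the δ line, -0.058 to 0.088 for Panx1. In the β line it gave -0.032 to 0.199 for Panx1 and -0.398 to 0.168 for P2ry6, and over both lines -0.009 to 0.107 for Panx1. Between the lines it gave -0.278 to 0.132 for Panx2, -0.034 to 0.140 for P2ry2, -0.339 to 0.576 for Art2b and -0.112 to 0.184 for Nlrp3. For the difference of effects it gave -0.049 to 0.149 for P2rx4, -0.055 to 0.185 for P2rx3, -0.185 to 0.047 for Panx1, -0.696 to 0.125 for Panx2 and -0.136 to 0.211 for P2ry2. The cause was not tested.

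Calls over all genes ran, in the δ line, from 1 to 1621 (1621 without replicate 2 of the untreated δ group), in the β line from 0 to 333, over both lines from 1 to 2273, for the difference of effects from 0 to 1056 and between the lines from 2452 to 5592. With quantile normalization 11.1% of the δ calls and 28.3% of the β calls were higher, beside 28.6% and 46.8%. Without replicate 2 of the untreated δ group 82.7% of the δ calls were higher, and 73.7% of those over both lines beside 49.2%. With the slide column as a replicate block only the doxycycline effects and their difference could be fitted, not the difference between the lines. There 0 of the members not picked on their fall passed, and of all genes 1 in the δ line, 0 in the β line and 1 over both lines. The dim probes of Panx2, P2ry1 and P2rx5 limit what their values can show.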
